A study of Rattus norvegicus with 15 samples.

Results

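Lhx2, Emx2, Ebf1, Ebf2, Ebf3, Ldb1 and Rest are regulators tied to the genes that olfactory sensory neurons use, and their transcripts were followed here on 15 arrays of rat olfactory epithelium. The members were all probes other than controls whose array gene name, without a suffix for predicted or mapped genes, was 1 of these 7 names. That rule found 8 probes of 6 genes. Emx2 was absent under its own name but present as an older identifier, RGD1564797, which the RefSeq gene table lists as a synonym of Emx2. With it, 10 probes of 7 genes were described, out of 41012 probes with 35561 distinct gene names.

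The samples came from 8 Brown Norway rats of 6 weeks, an inbred strain without any treatment, of which 4 were male (rats 1, 2, 5 and 6) and 4 were female (rats 3, 4, 7 and 8). The epithelium was taken separately from nostrils A and B, and male rat 1 gave nostril A alone, so 7 arrays were male and 8 were female. The dissected sheet is a mixture of neurons, stem cells, supporting cells and the tissue beneath, and neither the side of nostril A nor the supplier of a rat is given in the labels. The arrays lay on 4 slides: slide 1 held rats 1 and 2 with nostril A of rat 3, slide 2 held rat 4 with nostril B of rat 3, slide 3 held rats 5 and 6, and slide 4 held rats 7 and 8. Slide 1 was the only slide with males and females.

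Each olfactory neuron transcribes a single odorant receptor gene, chosen from a very large family. Lhx2 is a LIM homeodomain protein and Emx2 a homeodomain protein, and mice that lack either lose the expression of many receptor genes. Ldb1 is the adaptor that binds the LIM domains of Lhx2 and brings distant enhancers together. The Ebf proteins, also called Olf or O/E factors, were found through their binding to promoters of olfactory signalling genes, and Ebf1 is in addition a B cell and fat cell factor. Rest is a zinc finger repressor that keeps neuronal genes silent outside neurons.

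Where the members' probes lie matters for what follows, because the probes of Emx2 disagreed with each other, as did those of Rest. The files place them on rat genome build rn3. The first Emx2 probe, A_44_P349348, lies at chr1:266220817-266220876 on the plus strand, and the second, A_44_P915344, starts 1297 bases further along at chr1:266222114-266222173. The Rest probes lie on the minus strand at chr14:33150281-33150340 (A_43_P12682) and chr14:33136548-33136607 (A_44_P135290), 13733 bases apart. Exon or UTR positions were not analysed here. The probe sequences, whole except for the second Emx2 probe, of which the first 30 bases are given, are shown so that each can be placed on a transcript.
Emx2 A_44_P349348: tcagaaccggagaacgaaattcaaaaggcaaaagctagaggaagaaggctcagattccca
Emx2 A_44_P915344: ttcaagcactgagtttctcttccaagacca
Rest A_43_P12682: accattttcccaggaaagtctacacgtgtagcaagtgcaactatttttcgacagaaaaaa
Rest A_44_P135290: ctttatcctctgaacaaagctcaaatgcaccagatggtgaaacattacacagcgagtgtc

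The other members had 1 probe each, apart from Ebf2. Lhx2 was read by A_44_P240867 at chr3:18043293-18043352 (plus strand), Ebf1 by A_42_P627241 at chr10:30164135-30164194 (plus strand), Ebf3 by A_44_P384396 at chr1:197193234-197193293 (minus strand) and Ldb1 by A_44_P201379 at chr1:251516157-251516216 (minus strand). The Ebf2 probes A_44_P144538 and A_44_P529802 are 60 bases long but spread over 9331 and 453 bases of chromosome 15 (chr15:46977222-46986552 and chr15:46800623-46801075), so the files place each across a gap in the genome.

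The letters that these factors bind can be looked for in the promoters of their candidate targets. In RefSeq promoters of build GRCr8, each 300 bases long from 250 before to 50 after the gene's start, the Ebf palindrome TCCCNNGGGA was present in 0.834% of 33469 promoters and in 1 of 18 promoters of the olfactory signalling genes. That promoter belongs to Cnga2, a subunit of the cyclic nucleotide-gated cation channel of olfactory neurons, whose probe was well above background here. The stretch is shown because it is the only such match among those genes, with the palindrome in capitals, starting 98 bases before the gene's start at chrX:154741658-154741687 (plus strand).
Cnga2: caagggagagTCCCTAGGGAgcttgggagg
None of 1086 olfactory receptor promoters held the palindrome in this window. The homeodomain core TAATTA, the same on both strands, was present in 19.2% of the olfactory receptor promoters and in 5.36% of all promoters. Of the 18 promoters of the olfactory signalling genes, 1 held it. This motif holds only A and T, and the receptor promoters were richer in these letters, at 63.9% against 47.3% over all promoters. The motif shares were not corrected for this composition, and its part in them was not tested. A spaced form of the Rest element, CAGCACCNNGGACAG, searched on both strands, was present in 0.0299% of all promoters and in none of 16 promoters of the neuronal genes listed as carrying a Rest site. None of these 3 motifs was present in the 5 member promoters in the table (Lhx2, Ebf1, Ebf3, Ldb1 and Rest). These are counts of letters and not of bound sites.

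All 10 probes were measured above background in this tissue. A probe was scored as expressed when it was well above background on at least 11 of the 15 arrays, as was the case for 65.07% of all probes. Of the members, 9 probes were well above background on all 15 arrays, and the Rest probe A_44_P135290 was so on 12. No member probe was saturated. Levels below are log2 of the processed signal over the median signal of the array, which was between 57.4 and 83.4 intensity units, and the probes of different genes are not compared with each other since a probe's brightness depends on its sequence.

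The tissue carried the markers of olfactory epithelium. All 8 probes of the immature neuron list, all 5 of the supporting (sustentacular) cell list, 22 of 24 of the olfactory neuron signalling list and 6 of 7 of the basal cell list were detected on at least 7 arrays, with Krt14 detected on none. Other tissue was present as well, with 22 of 24 probes of the mesenchymal, bone and fat list, 10 of 11 of the ensheathing and Schwann cell list, 3 of 4 of the red blood cell list, 2 of 7 of the B cell list and 2 of 5 of the skeletal muscle list. In such mixed tissue, fewer cells of a type and less RNA per cell cannot be told apart.

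Most member probes varied somewhat less from rat to rat than the median tested probe. The rat means of a probe spanned from 1.23-fold (Emx2 A_44_P915344) to 1.88-fold (Emx2 A_44_P349348) between the lowest and the highest rat. The SD over the 8 rats was below the median of all tested probes, 0.161 on the log2 scale, for 8 of the 10 probes. The exceptions were Emx2 A_44_P349348, with an SD of 0.33, and Rest A_43_P12682, with an SD of 0.17. Over all tested probes, which were not matched to the members for level, the quartiles of this SD were 0.113 and 0.248. Female rat 3 had the highest level of 5 probes and female rat 8 the lowest of 6.

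**Figure D1:**
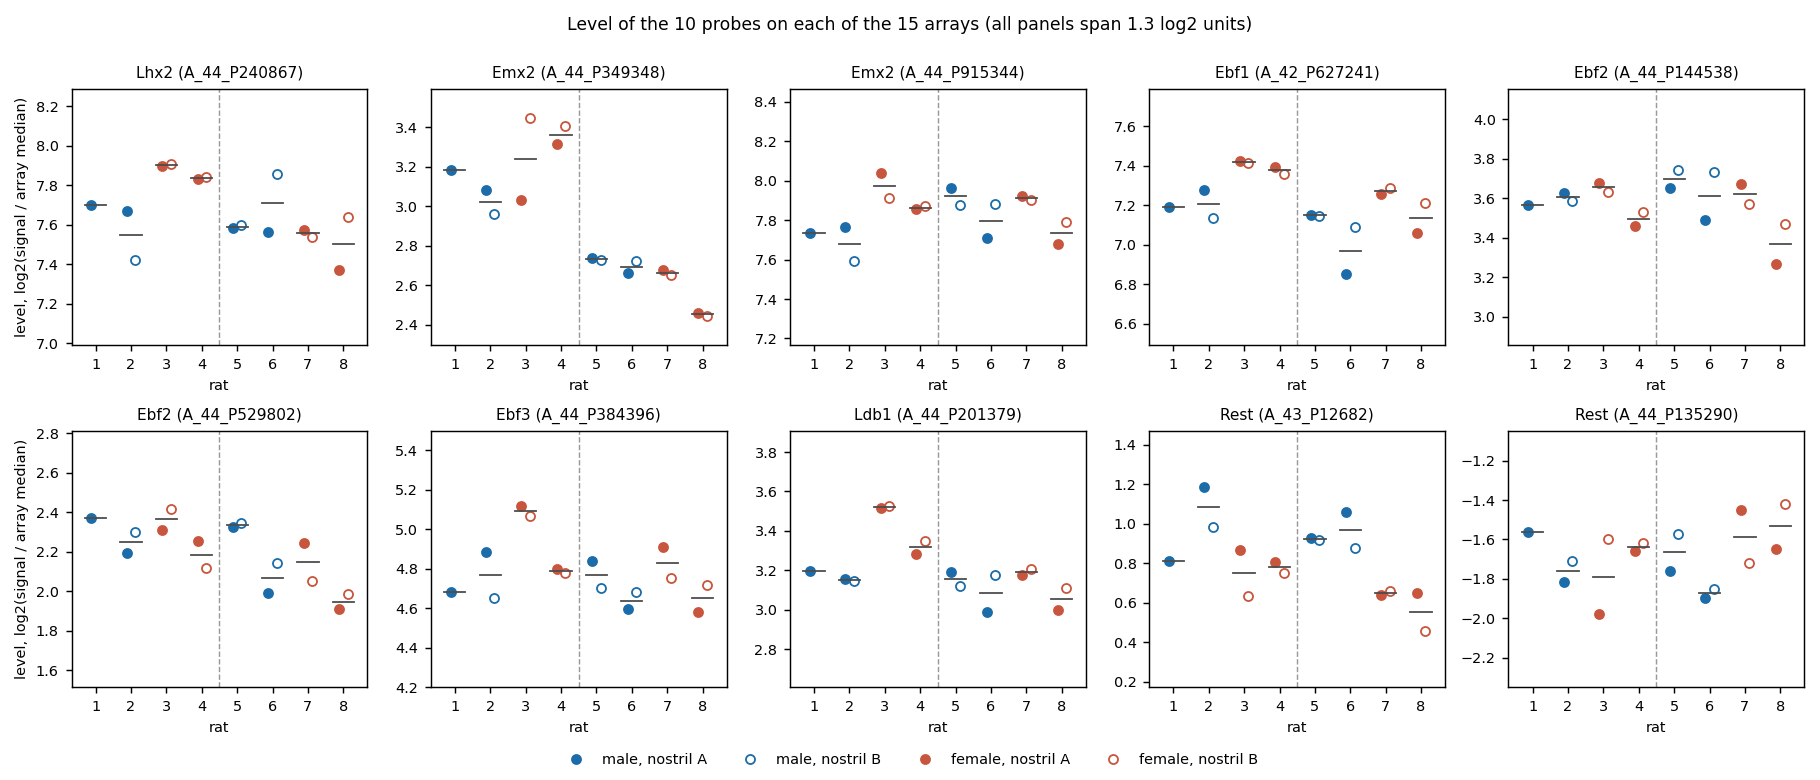
Level of each of the 10 probes (log2 of signal over the array median) on the 15 arrays, by rat. Blue points are males and red points females, filled for nostril A and open for nostril B, horizontal bars are rat means, and the dashed line separates rats 1 to 4 (slides 1 and 2) from rats 5 to 8 (slides 3 and 4). The points of Emx2 A_44_P349348 on the left of the line, from 2.96 to 3.44, all lie above those on the right, from 2.45 to 2.74, while those of Emx2 A_44_P915344 overlap.

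Emx2 was the only member with a difference between animals that passed, and it passed with 1 of its 2 probes. Whether rats of the same sex differed beyond the spread between nostrils was asked with limma's moderated F test over 6 contrasts between rats of 1 sex, at a false discovery rate of 1% over 27574 tested probes. A total of 768 probes passed, or 2.79% of those tested, and among the member probes 1 of 10 passed. This was Emx2 A_44_P349348 (F = 18.6, adjusted p = 0.00441). Its level was 3.18 in male 1, 3.02 in male 2, 2.73 in male 5 and 2.69 in male 6. In females it was 3.24 in rat 3, 3.36 in rat 4, 2.66 in rat 7 and 2.45 in rat 8. In either sex the rats of slides 1 and 2 were above the rats of slides 3 and 4. The call was lost without rat 4, 7 or 8 (adjusted p = 0.0160, 0.0143 and 0.0286), with the authors' ratio table (0.01004) and with no filter on dim probes (0.0140).

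Over the single arrays, the 7 arrays of slides 1 and 2 and the 8 arrays of slides 3 and 4 did not overlap for this probe. A gap in this direction was present in 1.48% of tested probes, and in the other direction in 1.3%. The mean of rats 1 to 4 was 3.20 ± 0.14 and that of rats 5 to 8 was 2.64 ± 0.13 (SD, n = 4 rats each), a difference of 0.57 or 1.48-fold. The difference was 0.39 in males and 0.74 in females. Female rat 3, the rat with arrays on 2 slides, had 3.03 on slide 1 and 3.44 on slide 2, the widest gap between nostrils of any rat for this probe. With slide as a block, which leaves only comparisons of rats within slides or linked through rat 3, the probe did not pass (F = 4.34, adjusted p = 0.253). Rat, slide and supplier, which the labels do not give for each rat, cannot be told apart for the difference between rats 1 to 4 and rats 5 to 8.

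The second Emx2 probe showed no such step. Its rat means on A_44_P915344 were 7.73, 7.68, 7.97 and 7.86 in rats 1 to 4 and 7.92, 7.79, 7.91 and 7.73 in rats 5 to 8. The difference between these sets was -0.03, and the F test over rats of 1 sex gave an adjusted p of 0.129. Over the 15 arrays the Emx2 probes had a Pearson r of 0.15, and of 0.46 after each level was centred on its slide, as a description of arrays that share rats and slides. The summed mesenchymal, bone and fat markers had ranges that almost met, 11.85 to 12.61 in rats 1 to 4 and 12.62 to 13.18 in rats 5 to 8. Of these, 22 of 24 probes were tested, with Sp7 detected on no array. The 2 tested probes of the paralogs listed below summed to 3.32 to 3.63 in rats 1 to 4 and 3.64 to 3.76 in rats 5 to 8. The other lists of markers and partners overlapped between these sets of rats. The part of these lists in the Emx2 result was not tested.

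**Figure D2:**
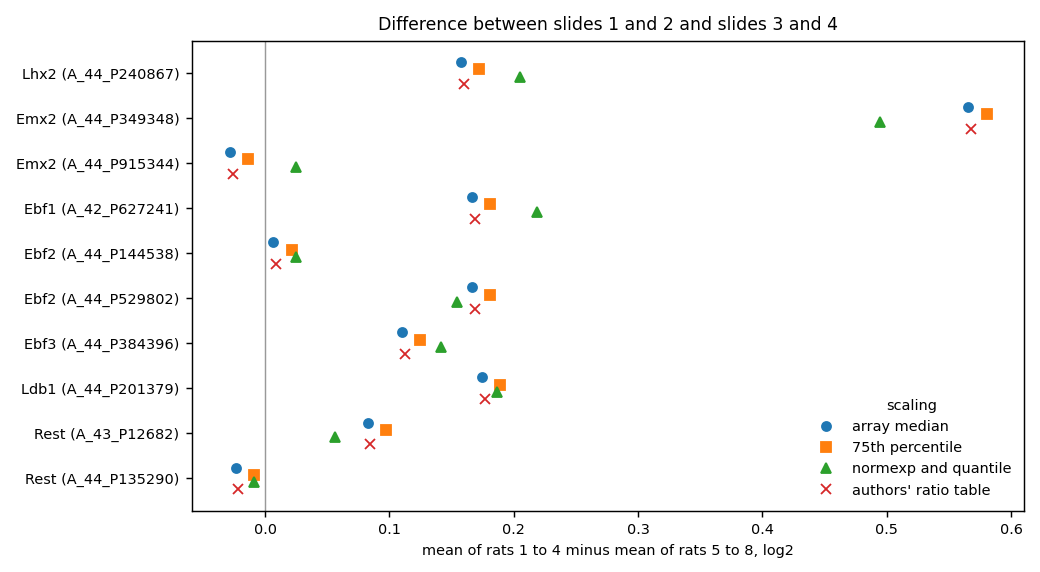
Mean of rats 1 to 4 minus mean of rats 5 to 8 for each probe (log2), with the levels scaled in 4 ways, which are the array median, the 75th percentile, normexp with quantile normalization and the ratio table deposited by the authors. Emx2 A_44_P349348 lies between 0.49 and 0.58 under all 4 scalings, and the other 9 probes lie between -0.03 and 0.22.

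The other members differed less between rats. Ldb1, the adaptor, was highest in female rat 3. Its level was 3.20 in male 1, 3.15 in male 2, 3.16 in male 5 and 3.08 in male 6, and 3.52, 3.32, 3.19 and 3.06 in females 3, 4, 7 and 8. The nostrils of rat 3 agreed closely, at 3.52 and 3.53, and lay above all other arrays. Its F was 7.22 (adjusted p = 0.0313), which passed 5% and missed 1%. Without rat 3 the F was 2.81 (adjusted p = 0.169), and the pass at 5% was also lost without rat 7 (0.0598), without rat 8 (0.113) and with slide as a block (0.392). Lhx2 was 7.90 in rat 3 and 7.84 in rat 4, and from 7.50 to 7.71 in the other 6 rats (F = 3.64, adjusted p = 0.107).

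The Ebf probes had ranges over rats that were similar to those of Lhx2. Ebf1 was highest in females 3 (7.42) and 4 (7.38) and lowest in male 6 (6.97; adjusted p = 0.0891, and 0.00844 after normexp background correction and quantile normalization). Ebf3 stood at 5.09 in rat 3 and between 4.64 and 4.83 in the others (adjusted p = 0.0719). The Ebf2 probes were lowest in rat 8, at 3.37 on A_44_P144538 (adjusted p = 0.227) and 1.95 on A_44_P529802 (adjusted p = 0.0576), and their highest rats, 5 (3.70) and 1 (2.37), differed. Neither Rest probe passed (adjusted p = 0.395 and 0.705), and their orders of rats differed, with rat 8 lowest on A_43_P12682 (0.55) and highest on A_44_P135290 (-1.53). The median F of the member probes was 3.85, beside 2.37 over all tested probes. At an unadjusted p under 0.05, 7 of the 10 member probes passed the F test, beside 37.1% of all tested probes. That count was 2 without rat 8 (beside 32.3%), 3 without rat 3 (beside 40.6%), 5 with the ratio table (beside 34.8%) and 2 with slide as a block (beside 17.1%).

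The sexes were compared on the means of 8 rats with limma's moderated test. At a false discovery rate of 1%, 12 of 27625 probes differed, or 0.0434%, and 0 of the 10 member probes were among them. At an unadjusted p under 0.05, 1 member probe passed, beside 17.1% of all tested probes. The differences of the members, female minus male, ran from -0.26 to 0.17 with a median of 0.07, beside a median of 0.01 over all tested probes.

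Rest A_43_P12682 was the member with an unadjusted p under 0.05. In males its level was 0.81, 1.09, 0.92 and 0.97, and in females 0.75, 0.78, 0.65 and 0.55. The sexes did not overlap, and 2.52% of tested probes were lower in every female than in every male. On nostril A alone the sexes did overlap, since female 3 (0.87) lay above male 1 (0.81), whose nostril B was not measured. The difference was -0.26 (SE 0.09, adjusted p = 0.193), a female level of 0.83 times the male level. Within slide 1, female rat 3 differed from males 1 and 2 by -0.08. The second Rest probe gave 0.08 (95% confidence interval -0.19 to 0.35), but -0.32 within slide 1, below that interval.

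Since Rest is a gene of cells other than neurons, the markers of such cells are set beside it. All 3 tested red blood cell probes and 9 of 10 ensheathing and Schwann cell probes were lower in females, with median differences of -1.94 and -0.41. All 5 sustentacular cell probes were higher in females, with a median of 0.31, as were 4 of 6 horizontal and globose basal cell probes, with a median of 0.16. Of the 22 mesenchymal, bone and fat probes, 14 were lower in females, with a median of -0.15, and both tested skeletal muscle probes were lower, with a median of -0.19. None of these probes passed at a false discovery rate of 1%. The summed red blood cell markers reached from 7.67 to 10.47 in males and from 6.54 to 9.72 in females, those of ensheathing and Schwann cells (S100b detected on no array) from 8.95 to 9.75 and from 8.37 to 9.11, and those of sustentacular cells from 11.41 to 11.67 and from 11.62 to 11.79. Their part in the Rest values was not tested.

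None of the activators passed between the sexes. Ebf1 had the widest positive difference, 0.17 (95% confidence interval -0.0045 to 0.35, adjusted p = 0.303), with males at 7.13 ± 0.11 and females at 7.3 ± 0.13 (SD, n = 4 rats each). B cells and fat cells also use Ebf1. Of 7 B cell probes 2 were tested, and they differed, with 0.03 for Blnk (adjusted p = 0.810) and -1.26 for Cd79b (adjusted p = 0.193), whose rat means ran from -1.39 to 1.79. The fat cell probes gave -0.35 for Adipoq (adjusted p = 0.374), 0.25 for Fabp4 (adjusted p = 0.740), 0.03 for Pparg (adjusted p = 0.873) and -0.15 for Cfd (adjusted p = 0.415). Their part in the Ebf1 values was not tested. Lhx2 gave 0.06 (-0.15 to 0.28), Ldb1 0.12 (-0.09 to 0.34) and Ebf3 0.13 (-0.08 to 0.33). Without rat 3, Ldb1 gave 0.0417 and Ebf3 0.0424. Emx2 gave 0.09 (-0.07 to 0.25) on A_44_P915344 and 0.02 on A_44_P349348, where the interval was wide, from -0.44 to 0.48. Ebf2 was the exception in sign, with -0.09 (-0.26 to 0.09) on A_44_P144538 and -0.09 (-0.33 to 0.14) on A_44_P529802. Without rat 8 these were -0.029 and -0.022, and without rat 3 they were -0.125 and -0.161. Within slide 1, where nostril A of female rat 3 was set against males 1 and 2, the difference was 0.27 for Lhx2, 0.33 for Emx2 A_44_P915344, 0.39 for Ebf3 and 0.34 for Ldb1, and all of these but that of Lhx2 lay above the upper ends of their intervals over 8 rats, for Ldb1 by less than 0.01. It was 0.23 for Ebf1, 0.09 and 0.0033 for the Ebf2 probes and -0.07 for Emx2 A_44_P349348, and of these that of Ebf2 A_44_P144538 also lay above its interval, by less than 0.01. Slides 2 to 4 held 1 sex each, so no other slide gives this value. The intervals are for differences of means over 4 rats per sex and not for 1 array against 2 males. A value outside them is therefore not a test.

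**Figure D3:**
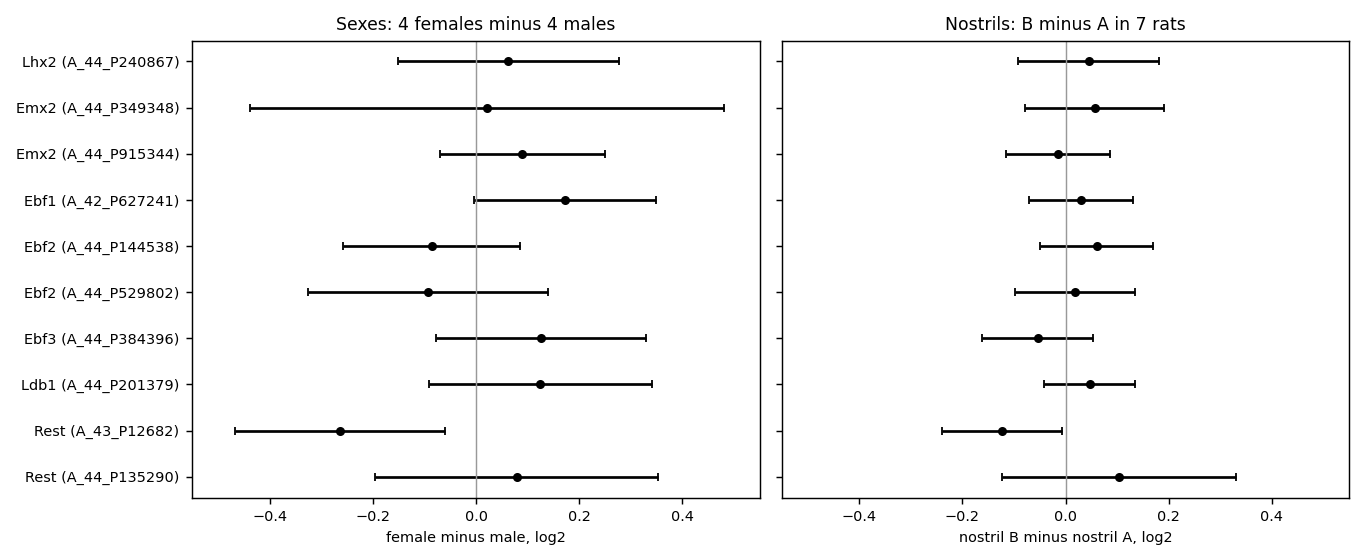
Difference of each probe between the sexes (left, female minus male, 4 rats each) and between nostrils (right, B minus A, 7 rats) on the log2 scale. Points are limma estimates and bars their 95% confidence intervals, without adjustment for the number of probes, and all intervals but those of Rest A_43_P12682 include 0.

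No probe passed between the nostrils. With rat as a block over 14 arrays of 7 rats, 0 of 27574 probes passed at 1%, or 0%, while 5.89% had an unadjusted limma p under 0.05. Of the members 0 passed and 1 had an unadjusted p under 0.05, namely Rest A_43_P12682, which was lower in nostril B in 6 of 7 rats by a mean of 0.12 (B minus A -0.12, adjusted p = 0.781). The other 9 differences ran from -0.05 (Ebf3) to 0.10 (Rest A_44_P135290). The SD within rats was from 0.06 (Ldb1) to 0.15 (Rest A_44_P135290), beside a median of 0.116 over tested probes. For Lhx2 the nostrils of male 2 were 7.67 and 7.42 and those of male 6 were 7.56 and 7.86, so the sign of the difference turned between animals. By limma, 0 of 27574 probes had a nostril difference that differed between the sexes at 1%, and no member had an unadjusted p under 0.05 in that test. Lower in nostril B were 9 of 10 ensheathing and Schwann cell probes (median -0.23), 19 of 22 mesenchymal, bone and fat probes (-0.09) and 4 of 6 basal cell probes (-0.07). All 3 red blood cell and both tested skeletal muscle probes were lower in B, and all 5 sustentacular probes were higher. Their part in the Rest values was not tested.

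Whether the regulators followed the receptors was asked by fitting each probe on the mean level of 774 tested olfactory receptor probes over the 8 rats. That mean ran from -0.10 in rat 8 to 0.44 in rat 3. No probe passed at 1% (0 of 27625, or 0%), and 10.7% had an unadjusted p under 0.05. Among the members 0 passed, but 8 of 10 slopes were above 0. With an unadjusted p under 0.05 and a slope above 0 there were 6 member probes, beside 5.76% of all tested probes. The median slope of the members was 0.59 log2 units per log2 unit of receptor level, beside 0.05 over all tested probes and 0.31 over the 22 olfactory neuron signalling probes.

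Slopes with an unadjusted p under 0.05 came from each kind of activator and from the adaptor. Emx2 A_44_P349348 had 1.44 (SE 0.45, adjusted p = 0.322), Ldb1 had 0.74 (SE 0.25, adjusted p = 0.345) and Lhx2 had 0.63 (SE 0.24, adjusted p = 0.405). That Emx2 probe is the one with the step between rats 1 to 4 and rats 5 to 8. The receptor level was 0.33, 0.10, 0.44 and 0.25 in rats 1 to 4 and 0.10, 0.10, 0.27 and -0.10 in rats 5 to 8. The part of the step in this slope was not tested. Among the Ebf probes, Ebf2 A_44_P529802 had 0.65 (adjusted p = 0.460), Ebf3 had 0.60 (adjusted p = 0.456) and Ebf1 had 0.57 (adjusted p = 0.463). The second probes of Emx2 and Ebf2 had 0.34 and 0.30, with intervals that include 0. The slopes of Rest were near 0 with wide intervals, at -0.03 (95% confidence interval -0.91 to 0.86) on A_43_P12682 and -0.09 (-1.0 to 0.82) on A_44_P135290. Without rat 8 the first of these was -0.84.

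The number of members with a small p changed with single animals and with the scaling. It was 3 with normexp and quantile normalization, beside 10.8% of all tested probes. It was 4 with 75th percentile scaling (beside 11.2%) and 4 with the ratio table (beside 11%). Without rat 3, 1 member probe had an unadjusted p under 0.05 in place of 6 (beside 5.46%), and without rat 8, 2 had (beside 13%). Within rats, the nostril differences of the members were set against those of the receptors in 7 rats. There 0 member probes had an unadjusted p under 0.05, beside 4.85% of all tested probes. Markers of other tissue ran the other way over the same rats. Of the 22 mesenchymal, bone and fat probes, 19 had slopes below 0, with a median of -0.74, and of the 10 ensheathing and Schwann cell probes 8 had, with a median of -1.34. All 5 sustentacular probes had slopes above 0, with a median of 0.41. Rat 3 had the lowest summed level of ensheathing and Schwann cell markers, 8.37, beside 8.55 to 9.75 in the others. Their part in the slopes of the members was not tested.

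**Figure D4:**
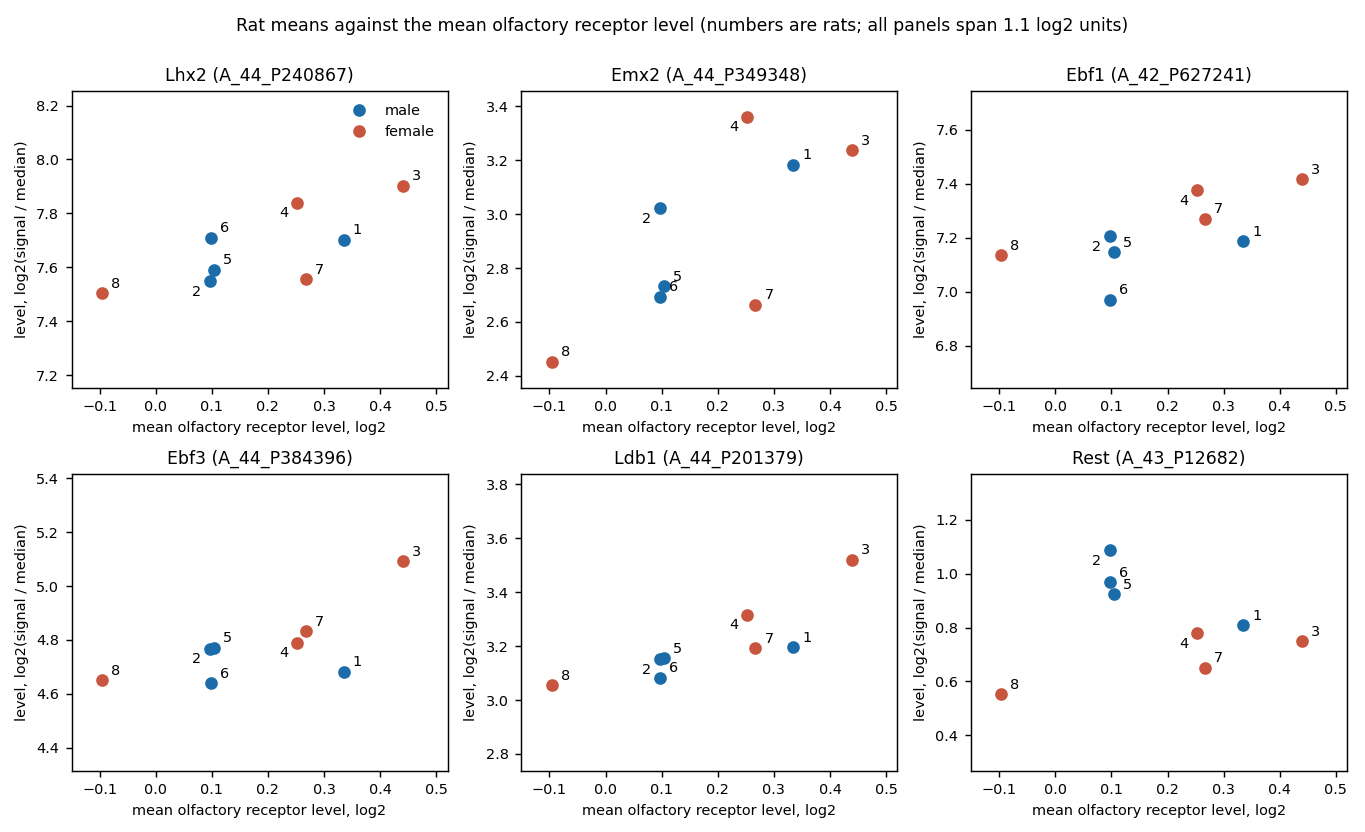
Rat means of 6 probes (log2 of signal over the array median) against the mean level of 774 olfactory receptor probes in the same 8 rats, blue for males and red for females, with the rat number beside each point. Rat 3 at 0.44 and rat 8 at -0.10 are the ends of the receptor axis, and the Rest slope has a 95% confidence interval from -0.91 to 0.86.

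The genes that work with the members were taken from fixed lists. Of 13 paralogs of Lhx2, Emx2 and the Ebf genes, 12 were on the array and 7 of these were detected on no array (Emx1, Isl2, Lhx1, Lhx4, Lhx5, Lhx6 and Lmx1a). Only Isl1, a LIM homeodomain factor of other neurons, and Lhx3, its partner in motor neurons, were tested, and neither passed in any of the 4 comparisons. Isl1 had rat means between 3.21 and 3.71. No probe bore the name Ebf4.

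Of 9 partners of Ldb1, 7 were on the array, and all their 8 probes were tested. Of these, 0 differed between sexes or nostrils or followed the receptors, and 1 differed between rats of 1 sex, a probe of Ssbp2, whose protein stabilises Ldb1 (A_44_P167849, rat means 5.16 to 5.73, F = 13.1, adjusted p = 0.009996), beside 2.79% of all tested probes. Lmo2 and Lmo4, LIM-only proteins that compete for Ldb1, were higher in females by 0.23 and 0.19 without passing (adjusted p = 0.175 and 0.225). Zfp423, a zinc finger protein that binds Ebf factors, had -0.23 in females (adjusted p = 0.192), and its relative Zfp521 had a slope of -1.08 on the receptor level (adjusted p = 0.467).

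Of 17 probes of Rest corepressors, 0 differed between sexes and 1 differed between rats, a probe of the phosphatase Ctdsp1 (A_44_P1046697, F = 15.98, adjusted p = 0.00641). The 3 probes of Hdac2, a histone deacetylase, disagreed between the sexes, with 0.34 on A_44_P314206 (adjusted p = 0.106), -0.17 on A_44_P491158 and -0.00023 on A_44_P139916. The probes of Rcor2, a CoREST protein, had slopes of -0.998 and -1.06 on the receptor level (adjusted p = 0.331 and 0.438). Of 26 tested probes of neuronal genes listed as carrying a Rest site, 0 differed between sexes and 1 between rats, a probe of the sodium channel gene Scn2a1 (A_44_P100365, rat means 1.097 to 1.76, F = 13.6, adjusted p = 0.0093). The counts between rats are likewise read beside 2.79% of all tested probes, and those between sexes beside 0.0434%. The other probes of these genes did not pass between rats, with an adjusted p of 0.137 for Ssbp2, 0.244 for Ctdsp1, and 0.0281 and 0.164 for Scn2a1. The calls of Ssbp2, Ctdsp1 and Scn2a1 were all lost with slide as a block (adjusted p = 0.573, 0.274 and 0.355) and with the ratio table (0.0225, 0.0168 and 0.0163). The Ssbp2 call was also lost with a floor of 0.01 of the median (0.0102). With no filter on dim probes the calls of Ssbp2 and Scn2a1 were lost (0.0259 and 0.0148). When 1 rat was left out, that of Ssbp2 held only without rat 3, that of Ctdsp1 only without rat 1 or rat 3, and that of Scn2a1 in no case. Chrm4 of that list had a slope of -1.12 on the receptor level without passing (adjusted p = 0.307). The 3 Calb1 probes disagreed, with -3.10 on the dim A_44_P118630 (adjusted p = 0.313) and 0.01 and 0.33 on A_44_P118625 and A_44_P621980.

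The olfactory neuron signalling genes, known Ebf targets among them, gave no calls. None of 22 probes passed in any of the 4 comparisons, while 20 were higher in females with a median of 0.11, and 19 had slopes above 0 on the receptor level. The 3 probes of the G protein subunit gene Gnal were higher in females by 0.27 (A_44_P137560, adjusted p = 0.142), 0.19 (A_43_P10315) and 0.08 (A_44_P591729), and that of Ric8b, its exchange factor, by 0.37 (adjusted p = 0.159). Of 774 olfactory receptor probes, 0 differed between sexes or nostrils, beside 0.0434% and 0% of all tested probes, and 1 between rats of 1 sex (0.129%), beside 2.79%. Between nostrils, 542 of them were higher in B, with a median of 0.12 beside 0.01 over all tested probes, and 133 had an unadjusted limma p under 0.05, beside 5.89% of all tested probes. In the same comparison 19 of 22 signalling probes and all 5 sustentacular probes were higher in B. Lower in B were 19 of 22 mesenchymal, bone and fat probes and 9 of 10 ensheathing and Schwann cell probes. Their part in the receptor values was not tested.

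Pearson's r over the 15 arrays gave, for the brightest probe of each member, the 3 named genes with the most similar pattern among 12983 to 12985 candidates, where arrays share rats and slides. For Lhx2 these were Bsn (0.91), a synapse scaffold gene, Stx1a (0.90), a syntaxin of vesicle release, and Klf10 (0.90). For Emx2 they were Slc45a1 (0.94), Ell3 (0.93) and Pigk (0.92). For Ebf1 they were Ripx (0.96), Id4 (0.95) and the neuronal ubiquitin hydrolase gene Uchl1 (0.95). For Ebf2 they were Arhgdig (0.91), Prkx (0.88) and L3mbtl2 (0.88), and for Ebf3 Ppm1d (0.94), Zfp53 (0.90) and Zcsl3 (0.89). For Ldb1 they were Pxmp4 (0.97), Thtpa (0.97) and Hrpap20 (0.96).

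For Rest they included Astn1 (0.86) and Map2k1ip1 (0.85). After each level was centred on its slide, these values for Rest fell to 0.37 and 0.67, whereas those of Ldb1 were 0.96, 0.96 and 0.96. Among the members, Ldb1 had r of 0.85 with Ebf3, 0.85 with Ebf1 and 0.79 with Lhx2. The Ebf2 probes had 0.67 with each other (0.69 after centring on slides), and the Rest probes had -0.67 (-0.38 after centring).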

How the data were processed

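RNA of 15 samples (8 rats) was hybridized in 1 colour to Agilent whole rat genome arrays. Per the file headers, the authors' scanner files came from Feature Extraction 9.5.1.1 with rn3 coordinates, and hold background-subtracted intensity values per spot. The value table that the authors deposited holds a ratio per probe. Over 20463 compared probes, 99.95% of its values lay within 2% of a ratio computed here. That ratio was the signal over the array median, then divided by the probe's own median. Here, the processed signal was averaged over the spots of a probe, without outlier spots (61 to 175 per array). The average was divided by the array median over probes, floored at 0.1 of it and taken to log2. Probes well above background on at least 7 arrays were tested (26233 to 28741 detected per array). The lowest detected signal was 10.01 to 14.49 units, and the number of arrays limits the precision.

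limma 3.58.1 (R 4.3.3) was run with Benjamini-Hochberg adjustment over all tested probes at 1%. Sexes and the receptor relation used 8 rat means, nostrils used rat as a block, and differences among rats used 15 arrays. p-values rest on 4 rats per sex. Each test was checked on simulated data. The alternatives were other scalings, background correction, the ratio table, floors, filters, outlier spots, a 5% threshold, leaving out rats, slide and rat blocks, the methods' t-test (on the same values) and other receptor summaries.

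Emx2 was added through the RefSeq gene table (GRCr8). RefSeq promoters of that build served for the motif counts, and no coordinates were carried between rn3 and GRCr8. Text names all member probes, the 3 probes most like each member's brightest probe and, from partner lists, probes past 1% or with the smallest p; marker lists are given by counts. A probe that this rule names is not reported here. Members and lists were chosen with earlier results of these data known. A difference between suppliers was not analysed here.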

Additional observations from a re-analysis of the deposited data

Results flagged for a closer look

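No member probe had a rat far from the others of its sex by Dixon's 95% criterion for 4 values, over 20 sets of 4 rats.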

How the results depend on the processing

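The count of member probes past 1% stayed at 0 for sexes, nostrils and the receptor relation under every alternative run. For differences among rats of 1 sex it was 2 with normexp and quantile normalization or at 5%, 0 with the ratio table, without a filter or with slide as a block, and 0 to 1 when 1 rat was left out. Over all probes, that comparison gave 1305 calls with 75th percentile scaling, 1571 with normexp, 356 with the ratio table, 4442 at 5%, 1 with slide as a block and 186 to 898 without 1 rat. The sexes gave 6 calls with the ratio table, 3 among probes detected on at least 11 arrays, 20 at 5%, 468 with slide as a block, 21 with rat as a random block and 1031 with arrays as independent. The methods' t-test with Benjamini-Hochberg adjustment at 1% gave 8 probes and 0 members. The receptor relation gave 4 at 5%. The cause of these changes was not tested.

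Member values that did not pass turned in sign as follows. With 75th percentile scaling, Emx2 A_44_P349348 had -0.0068 between sexes and Rest A_43_P12682 a receptor slope of 0.0138. With slide as a block, the sex differences of Emx2 A_44_P349348, Ebf2 A_44_P144538 and Rest A_44_P135290 were -0.0664, 0.0629 and -0.30. The nostril differences of the Emx2 probes without rat 3, on 2 slides, were -0.0028 and 0.0037. The receptor slope of Rest A_43_P12682 was 0.13 with sex as a covariate, 0.0462 within rats and 0.0068 on the receptor median, and that of Ebf2 A_44_P529802 was -0.34 within rats. When 1 rat was left out, the sex difference ran from -0.0045 to 0.13 for Lhx2 and from -0.12 to 0.18 for Emx2 A_44_P349348. The nostril difference ran from -0.046 to 0.0116 and from -0.0028 to 0.0859 for Emx2 (A_44_P915344 and A_44_P349348), from -0.0031 to 0.0599 for Ebf1 and from -0.0033 to 0.0534 for Ebf2 A_44_P529802. The receptor slope ran from -0.84 to 0.12 and from -0.21 to 0.26 for Rest (A_43_P12682 and A_44_P135290) and from -0.0756 to 0.37 for Ebf2 A_44_P144538. No paired analysis was possible because the sexes share no replicate numbers. The sex difference within slide 1 was added after seeing the data. Centring on slides left 0 to 1 of the 3 probes most like each member. Rest A_44_P135290, the dimmest member, was closest to background.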
